A study of Homo sapiens with 2 samples.

Results

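The genes described here build the nuclear pore complex and carry cargo through it. They were chosen by symbol alone: nucleoporins named NUP followed by digits, the importins and exportins named KPNA, KPNB, IPO or XPO with a digit, the transportins TNPO1 to TNPO3, and CSE1L, RAN, RANBP1, RANBP2, RCC1 and RANGAP1. The rule took 49 of the 60619 genes in the table, after 4 pseudogenes were left out. Of the 49, 48 code for protein and 1, IPO9-AS1, is an antisense RNA that had 9 counts with CBS and 5 without it. Of the 48 protein-coding genes, 47 passed the filter on low counts (at least 10 counts in 1 library and a mean of 1 CPM or more, where CPM is the count scaled to library size), and KPNA7 did not.

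RNA was sequenced from HBEC-3KT, a line of human bronchial epithelial cells immortalized with CDK4 and telomerase that grows with a basal-like character. One library came from cells transduced with a lentivirus, pLenti6, that carried human CBS, the gene of cystathionine beta-synthase, an enzyme that turns homocysteine into cystathionine. The other came from cells given pLenti6 without the insert, labelled as the control. Both cultures saw virus for 4 to 8 hours and were selected with blasticidin at 10 µg/mL, and both were grown for 4 to 5 days on gelatin-coated plastic. The design asked how CBS expression bears on Polycomb repressive complex 2.

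Each group held 1 library, so the differences below were not checked against replicates or tested between conditions. Total counts were 20785957 with CBS and 20433062 in the empty-vector library. CBS itself had 3669 against 280 counts, and its near-identical copy CBSL had 4378 against 343, so both libraries matched their labels; the split of reads between the copies is uncertain. All 9 airway basal markers examined were above the filter, among them KRT5 with 54419 against 83759 counts. Their summed level was 7189 CPM with CBS and 11073 CPM with the empty vector. A counting interval below a ratio of 1 was found for 7 of the 9, against 31.1% of all genes above the filter. Immune markers summed to 39.7 against 124 CPM, where CD68 had 619 against 2259 counts and CD14 had 225 against 203, with PTPRC and CD3E at 0 in both libraries. Fibroblast, endothelial, ciliated and secretory markers summed to at most 13.8 CPM each in either library, and COL1A2, DCN, LUM, KDR and FOXJ1 were at 0 in both. Single markers in these lists differed in both directions: CDH5 had 87 against 7 counts, DNAH5 had 94 against 26, and COL1A1 had 132 against 270. The part of these marker differences in the results below was not tested. In a bulk library, fewer cells of a type and less RNA per cell cannot be told apart.

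A nuclear pore is built from rings of scaffold nucleoporins that line the opening in the nuclear envelope, and from nucleoporins rich in phenylalanine and glycine (FG) repeats that fill the channel. Importins bind cargo in the cytoplasm and release it in the nucleus when they meet Ran bound to GTP, whereas exportins leave the nucleus together with cargo and Ran-GTP. RCC1 on chromatin loads Ran with GTP and RANGAP1 outside the nucleus makes Ran hydrolyse it, which keeps the gradient that gives transport its direction. Dividing cells make new pores before and after each mitosis.

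Most of these genes stood higher in the CBS library (values follow), and the sequence before the start of 6 of them is shown. They are scaffold and cytoplasmic-face nucleoporins and importins, with folds from the highest of the members to one just below 0, and their windows lie at most 30 bases inside the gene as the deposited table places it. Each is the stretch of 250 bases before the start, read 5′ to 3′ along the gene from RefSeq on GRCh38.p14. Capitals mark 4 motifs found on either strand: CACGTG (the E-box bound by MYC and MAX), GCATGCG (the core of the NRF1 motif), CCGGAAG (ETS factors) and CCAAT (or ATTGG, its reverse).
NUP133 (chr1:229508342-229508591, minus strand): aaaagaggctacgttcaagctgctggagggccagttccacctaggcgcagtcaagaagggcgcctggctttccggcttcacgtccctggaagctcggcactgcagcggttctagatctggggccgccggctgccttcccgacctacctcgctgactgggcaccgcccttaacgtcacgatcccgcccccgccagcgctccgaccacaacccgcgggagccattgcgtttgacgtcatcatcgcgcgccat
NUP37 (chr12:102120115-102120364, minus strand): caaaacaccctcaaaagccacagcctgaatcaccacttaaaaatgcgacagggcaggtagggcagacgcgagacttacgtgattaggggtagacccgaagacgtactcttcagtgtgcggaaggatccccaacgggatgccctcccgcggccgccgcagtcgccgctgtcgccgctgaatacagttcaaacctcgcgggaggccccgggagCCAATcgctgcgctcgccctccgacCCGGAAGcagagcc
NUP188 (chr9:128947449-128947698, plus strand): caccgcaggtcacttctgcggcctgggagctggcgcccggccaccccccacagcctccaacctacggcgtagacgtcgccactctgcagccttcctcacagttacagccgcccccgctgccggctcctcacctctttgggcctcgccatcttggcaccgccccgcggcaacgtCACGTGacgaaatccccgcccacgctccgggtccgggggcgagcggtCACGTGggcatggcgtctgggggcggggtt
NUP214 (chr9:131125336-131125585, plus strand): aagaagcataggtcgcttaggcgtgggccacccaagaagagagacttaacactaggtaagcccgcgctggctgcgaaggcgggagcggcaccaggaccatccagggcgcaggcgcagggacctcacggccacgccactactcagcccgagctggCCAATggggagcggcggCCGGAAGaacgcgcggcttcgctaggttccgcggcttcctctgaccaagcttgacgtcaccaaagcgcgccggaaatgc
IPO5 (chr13:97953425-97953674, plus strand): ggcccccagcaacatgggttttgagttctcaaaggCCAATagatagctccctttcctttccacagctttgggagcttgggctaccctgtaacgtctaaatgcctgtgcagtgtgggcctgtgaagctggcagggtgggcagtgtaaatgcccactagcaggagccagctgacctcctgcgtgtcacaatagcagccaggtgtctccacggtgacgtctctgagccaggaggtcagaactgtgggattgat
KPNA1 (chr3:122514940-122515189, minus strand): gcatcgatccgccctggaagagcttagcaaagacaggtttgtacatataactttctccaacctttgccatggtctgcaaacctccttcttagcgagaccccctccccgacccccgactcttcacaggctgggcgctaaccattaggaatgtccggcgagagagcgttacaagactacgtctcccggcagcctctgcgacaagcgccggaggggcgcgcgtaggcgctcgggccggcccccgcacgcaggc
NUP188 held 2 E-boxes, at 77 and 30 bases before the start. NUP37 held CCAAT at 39 and the ETS motif at 14 bases before it, NUP214 held the same pair at 96 and 79 bases, and IPO5 held CCAAT at 215 bases. NUP133, which had the highest fold of the members, and KPNA1, which had no higher level with CBS, held none of the 4 motifs in this window. GGGCGG, counted in the next paragraph, was not marked, and the windows of NUP133, NUP188 and KPNA1 held it. Whether any motif bears on the levels was not tested.

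Windows of the same length were found for 41 of the 48 members, and the other 7 were not matched. When a gene had several starts, the first listed was used. The E-box stood in 7 of the 41 windows (17.1%), against 6.49% of all 27305 windows and 8.86% of those of 9352 genes above the filter. The ETS motif stood in 11 (26.8%), against 8.82% and 16.7%. CCAAT stood in 18 (43.9%), against 33.0% and 35.5%, and the NRF1 core in 6 (14.6%), against 3.57% and 5.73%. GGGCGG, the GC box of SP1, stood in 22 (53.7%), against 42.3% and 68.0%. TTGGCGC, an E2F core, stood in 2 (4.88%), against 2.63% and 4.28%. Both strands were searched, and the CCAAT and ETS letters do not overlap each other. A match describes the letters only.

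Most of the pore and transport genes had a modestly higher level in the CBS library, and none reached a 2-fold difference. Log2 folds below are CBS over empty vector, after scaling by the trimmed mean of M values (TMM) and with a prior count of 5, and each interval is the exact 95% interval of the count ratio, which covers counting error only. Of the 47 genes above the filter, 44 had a positive log2 fold, against 6674 of all 13304 genes above the filter. The median was 0.39, with quartiles of 0.29 and 0.47, whereas the median of all 13304 genes above the filter was 0.00, with quartiles of -0.31 and 0.27. The interval lay wholly above a ratio of 1 for 42 members (89.4%), against a background of 31.6% of all genes above the filter. It lay below for 0 members, against a background of 31.1%. Intervals are narrower for well-counted genes. Among the 4026 genes with a mean of at least 1000 counts, the background was 42.0% above and 37.7% below, and 32 of the 35 members in that range lay above.

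Few members differed by more than this. At least 1.5-fold higher with an interval above 1 were 5 members (10.6%), against a background of 7.02%, and 0 were at least 1.5-fold lower, against 12.9%. In the authors' TPM, transcript levels scaled for length and depth, and with no condition on an interval, 10 members (21.3%) were at least 1.5-fold higher, against a background of 9.20%. At the 2-fold level, 0 members were higher and 0 lower, where the background was 1.41% and 5.28%. The 5 genes by counts were NUP133, NUP155, IPO4, XPO4 and CSE1L, and all but IPO4 (0.56) were also at least 1.5-fold higher in TPM. After a lowess correction for GC content and length there were 4 (8.51%), against a background of 6.70%: XPO4 (0.56) and CSE1L (0.49) fell short of 1.5-fold, NUP62 (0.62) passed it, and IPO4 (0.81) stood above NUP133 (0.68). That correction takes away the smooth trend of the log2 fold over all genes. Among genes with a mean of at least 1000 counts, 3 of the 35 members (8.57%) were at least 1.5-fold higher, against a background of 4.52%. The 20 pore genes had a median log2 fold of 0.43 and the 27 transport genes above the filter one of 0.37.

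**Figure D1:**
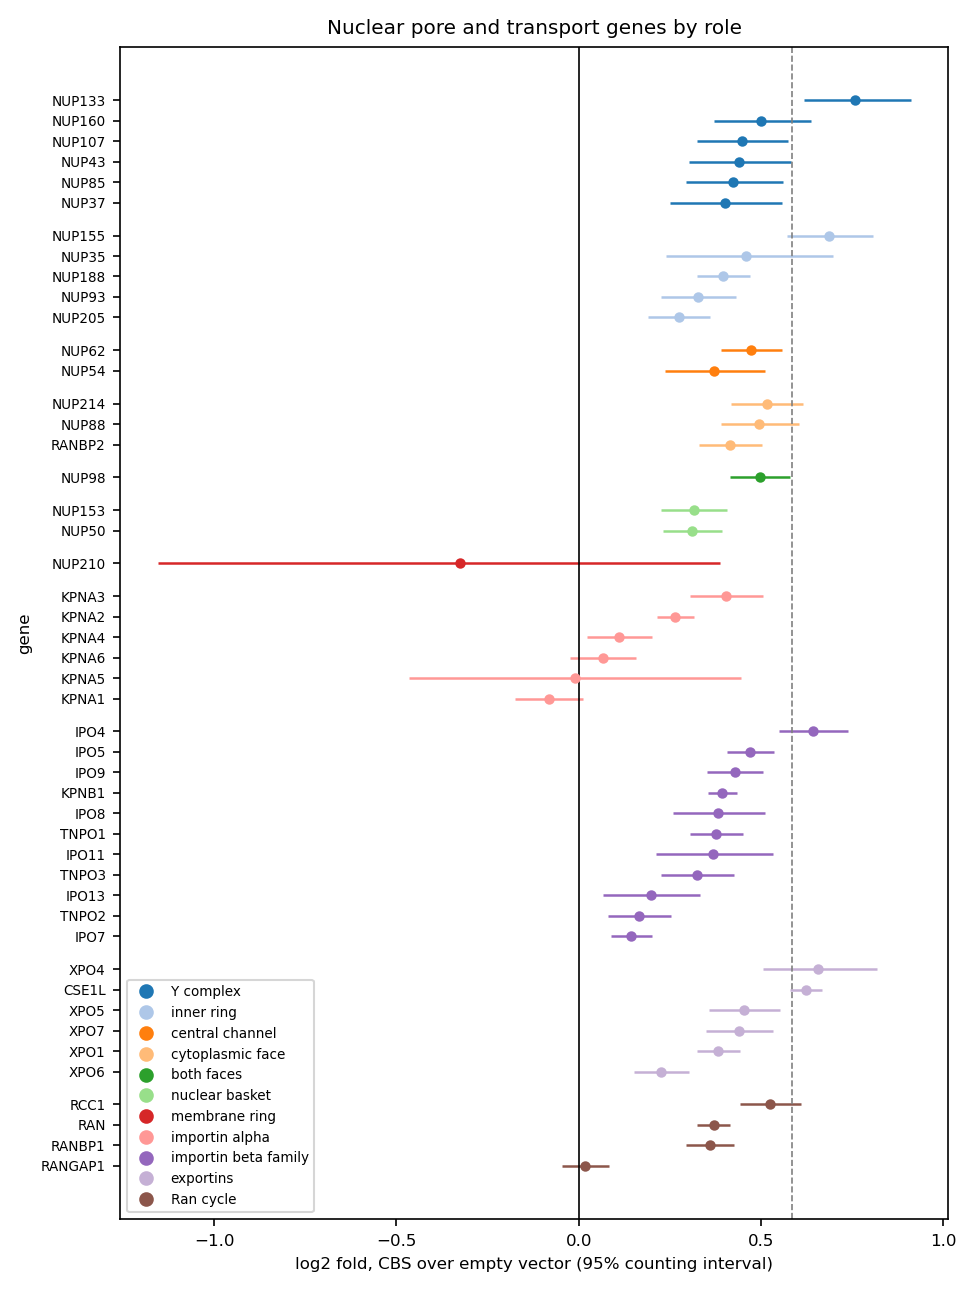
Log2 fold (x axis, CBS over empty vector) of the 47 genes above the filter, coloured and grouped by role; bars are 95% counting intervals from 1 library a group, the solid line is a ratio of 1 and the dashed line a 1.5-fold higher level. Points of most roles sit between 0.2 and 0.7, the importin alpha genes sit nearer to 0, and NUP210 and KPNA5 have wide intervals that hold a ratio of 1.

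In the Y complex, the scaffold of the outer rings, all 6 subunits named by the rule had an interval above 1, with a median log2 fold of 0.44. The background for such an interval was 31.6% of all genes above the filter. NUP133, a stem subunit with a membrane-binding motif, is on chromosome 1 (GRCh38, 229440260 to 229508341) and was counted 1083 times with CBS and 596 times without. That was 50.8 against 29.9 CPM, a log2 fold of 0.76 (0.62 to 0.91) or 1.69-fold, the highest of all 47. NUP160, a subunit of its arms, had 1156 counts with CBS and 762 without, a log2 fold of 0.50 (0.37 to 0.64). NUP107, the partner of NUP133 in the stem, followed with 1311 against 897 counts, at 0.45 (0.33 to 0.57). The other 3, NUP43 with 1041 against 716 counts, NUP85 with 1138 against 791 and NUP37 with 851 against 601, had log2 folds of 0.44, 0.42 and 0.40. The intervals of these 5 all overlapped each other, and NUP133 had the highest value.

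Inner ring nucleoporins, which hold the channel to the pore membrane, had an interval above 1 in 5 of 5 cases, against a background of 31.6%. Their median log2 fold was 0.40. NUP155, a scaffold that touches the membrane (chromosome 5, 37288137 to 37371181), had 1600 counts with CBS and 927 without, a log2 fold of 0.69 (0.57 to 0.81). NUP35, which binds NUP155 and the membrane, had fewer counts, 392 against 265, and a log2 fold of 0.46 (0.24 to 0.70). The large scaffold NUP188 had 3750 against 2660 counts, at 0.40 (0.33 to 0.47). NUP93, which links the ring to the channel, had 1815 counts with CBS and 1350 without, a log2 fold of 0.33, and NUP205, the relative of NUP188, had 2632 against 2032 and 0.27. The intervals of NUP155 and NUP205 (0.19 to 0.36) did not overlap.

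The FG nucleoporins of the channel and both faces were also higher. NUP62, at the centre of the channel, had 2852 counts with CBS and 1919 without, a log2 fold of 0.47 (0.39 to 0.56), and its partner NUP54 had 1033 against 745 and 0.37 (0.24 to 0.51). The channel's other subunit, NUP58, stands in the table under its older symbol NUPL1 and so falls outside the rule. It went the other way, with 2383 counts against 2432, a log2 fold of -0.13 (-0.21 to -0.05). In TPM, which is scaled for transcript length, the ratio of NUPL1 to NUP62 was 0.532 with CBS and 0.798 with the empty vector, while the ratio of NUP62 to NUP54 was 1.81 and 1.77.

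On the cytoplasmic face, where exported mRNA is released, NUP214 had 2117 counts with CBS and 1382 without, a log2 fold of 0.52 (0.42 to 0.62). NUP88, which forms a complex with NUP214, had 1776 against 1176 and 0.49 (0.39 to 0.60). RANBP2, the filament protein that binds Ran and RANGAP1, had 2599 against 1819 and 0.42 (0.33 to 0.50). Their order depended on the scale, since on the log2(TPM + 1) scale NUP214 was lowest at 0.29, with RANBP2 at 0.50 and NUP88 at 0.63. RANBP2 resembles the RGPD genes, so its value is uncertain to the extent that reads were split; the 7 RGPD genes summed to 646 and 597 counts. NUPL2, the older symbol of the cytoplasmic nucleoporin NUP42, had 445 against 308 counts and 0.43 (0.22 to 0.65). NUP98, an FG nucleoporin of both faces whose precursor also yields the Y complex subunit NUP96, had 2978 against 1970 and 0.50 (0.42 to 0.58). The nuclear basket pair was close together, with NUP153 at 2270 against 1703 counts and 0.32 (0.23 to 0.41) and NUP50, a cofactor of importin-dependent transport, at 2870 against 2159 and 0.31 (0.23 to 0.39). NUP210, a membrane glycoprotein found in few tissues, was close to the filter with 28 against 34 counts, and the interval (-1.15 to 0.39) around its log2 fold of -0.33 held a ratio of 1.

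Importin alpha genes, whose products bind the classical nuclear localization signal and join it to importin beta, had the lowest median of the roles with more than 1 member. Of 6 above the filter, 3 (50%) had an interval above 1. The background was 31.6% of all genes above the filter and 42.0% of those with a mean of at least 1000 counts. The median log2 fold was 0.09. KPNA3 had 2007 counts with CBS and 1416 without, a log2 fold of 0.40 (0.31 to 0.50). KPNA2, the form abundant in dividing cells and the best counted of the family, had 7343 against 5708 and 0.27 (0.22 to 0.32). KPNA4, the closest relative of KPNA3, had 2161 against 1868 and 0.11 (0.02 to 0.20), an interval that did not overlap that of KPNA3. The intervals of the other 3 held a ratio of 1. KPNA6 had 2101 against 1875 counts and 0.07 (-0.02 to 0.16), KPNA5 had 86 against 81 and -0.01 (-0.47 to 0.44), and KPNA1 had 1828 against 1807 and -0.08 (-0.18 to 0.01). After a lowess correction for GC content and length, KPNA1 was at -0.20, with an interval below 1, and KPNA4 at 0.01 (-0.08 to 0.10). That left 2 of the 6 above 1, against a background of 31.1% after the same correction. KPNA7, a form of oocytes and early embryos, had 1 count with CBS and 9 without, and the interval of its log2 ratio ran from -8.72 to -0.42.

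All 11 receptors of the importin beta family had an interval above 1, against a background of 31.6%, with a median log2 fold of 0.38. KPNB1, importin beta itself (chromosome 17, 47649476 to 47685505), had 12754 against 9066 counts, which is 598 against 455 CPM, and a log2 fold of 0.39 (0.36 to 0.43). IPO4, an importer of histones H3 and H4, had 2461 against 1471 counts and the highest log2 fold of the family, 0.64 (0.55 to 0.74). IPO5, a carrier of ribosomal proteins and histones, had 4920 against 3315 and 0.47 (0.41 to 0.54). IPO9, a carrier of histones H2A and H2B, had 3322 against 2305 and 0.43 (0.35 to 0.51). Their order depended on the scale, since on the log2(TPM + 1) scale IPO9 was at 0.71, IPO5 at 0.66 and IPO4 at 0.56.

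Other receptors of this family had log2 folds from 0.14 to 0.38. IPO8 had 1214 counts with CBS and 869 without, a log2 fold of 0.38, and IPO11 had 762 against 550 and 0.37. IPO7, which is related to IPO8 and brings in ribosomal proteins, had 5711 against 4826 and the lowest value of the family, 0.14. After the lowess correction it was 0.03 (-0.02 to 0.09), which left 10 of the 11 above 1, against a background of 31.1%. IPO13, which works in both directions, had 1025 against 834 and 0.20. Of the transportins, TNPO1, the receptor of hnRNP proteins, had 3699 counts with CBS and 2660 without, a log2 fold of 0.38. TNPO3, the receptor of SR splicing factors, had 1948 against 1452 and 0.32. TNPO2, a close relative of TNPO1, had 2415 against 2010 and 0.17 (0.08 to 0.25), below the interval of TNPO1 (0.31 to 0.45). That difference depended on the scale, since both were at 0.28 after the lowess correction, and on the log2(TPM + 1) scale TNPO2 was at 0.29 and TNPO1 at 0.27.

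The exportins had an interval above 1 in 6 of 6 cases, against a background of 31.6%, with a median log2 fold of 0.45. XPO4, an exporter of the translation factor eIF5A, had 911 counts with CBS and 538 without, a log2 fold of 0.66 (0.51 to 0.82). CSE1L, which returns importin alpha to the cytoplasm (chromosome 20, 49046246 to 49096960), had 11652 against 7066 counts, 546 against 355 CPM, and a log2 fold of 0.62 (0.58 to 0.67). XPO5, the exporter of microRNA precursors, had 2147 against 1464 and 0.45 (0.36 to 0.55), and XPO7 had 2397 against 1650 and 0.44. On the log2(TPM + 1) scale XPO5 was at 0.28 and XPO7 at 0.52. XPO1, the receptor of leucine-rich export signals, had 5434 against 3892 and 0.38 (0.32 to 0.44). XPO6, which exports actin, was lowest, with 3292 against 2627 counts and 0.23. In TPM, CSE1L stood at 0.619 of the summed importin alpha genes with CBS and at 0.463 with the empty vector, and KPNB1 at 0.702 and 0.606 of the same sum.

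In the Ran cycle, 3 of 4 genes had an interval above 1. The background was 31.6% of all genes above the filter and 42.0% of those with a mean of at least 1000 counts. RCC1, the exchange factor, had 3006 counts with CBS and 1950 without, a log2 fold of 0.53 (0.44 to 0.61). RAN (chromosome 12, 130871879 to 130877678) had 9341 against 6749 counts, 438 against 339 CPM, and a log2 fold of 0.37 (0.33 to 0.42). RANBP1, which helps to take Ran-GTP off the receptors, had 4415 against 3211 and 0.36 (0.30 to 0.43). RANGAP1 had 4145 counts with CBS and 3824 without, and its interval (-0.05 to 0.08) around a log2 fold of 0.02 held no difference and overlapped none of the other 3. After the lowess correction it was 0.14 (0.07 to 0.20), and with plain library totals 0.09 (0.03 to 0.16). Under either, all 4 genes had an interval above 1. The background was 31.1% after the correction, and 5061 of 13304 genes with plain library totals. The TPM ratio of RANGAP1 to RCC1 was 1.04 with CBS and 1.45 with the empty vector, while that of RANBP1 to RAN was 0.400 and 0.392.

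By level per transcript length, the order of the genes was nearly the same in both libraries. RAN was highest at 938 TPM with CBS and 666 with the empty vector, followed in both by RANBP1 (375 and 261), KPNB1 (263 and 184), KPNA2 (238 and 182) and CSE1L (232 and 141). NUP88 was the highest nucleoporin among the members at 109 and 70.0 TPM. Outside the rule, SEC13 stood at 114 TPM with CBS and 98.8 with the empty vector, and AAAS at 82.4 and 86.5. The members of the Y complex and inner ring lay lower, with CBS from 15.3 TPM for NUP160 to 54.8 for NUP85. NUP133 went from place 44 of 48 with the empty vector, 10.5 TPM, to place 37 with CBS, 19.8 TPM. KPNA1 went the other way, from place 18 at 41.2 TPM to place 29 at 40.8 TPM. Lowest of the genes above the filter were KPNA5 at 1.47 and 1.53 TPM and NUP210 at 0.27 and 0.32. Summed over the 47 genes, the level was 3954 TPM with CBS and 2844 with the empty vector.

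**Figure D2:**
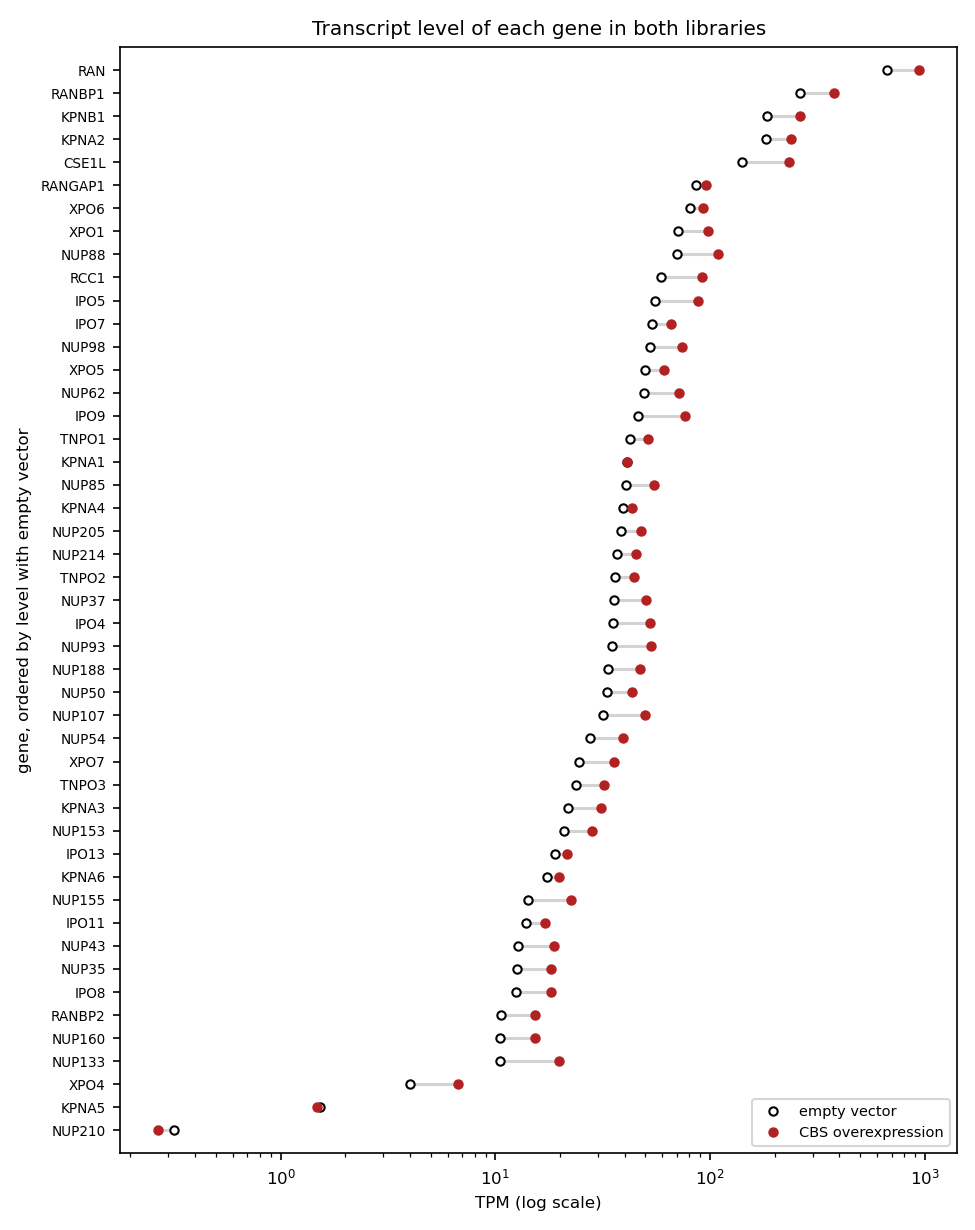
Level in TPM (x axis, log scale) of the 47 genes above the filter in the empty-vector library (open circles) and the CBS library (filled circles), ordered by level with the empty vector, 1 library each. RAN is highest at 666 and 938 TPM, and only KPNA1, KPNA5 and NUP210 have a filled circle to the left of the open one.

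Other genes of the pathway, listed apart from the members, included higher and lower ones. Of 10 measured pore proteins with other names, 6 (60%) had an interval above 1 and 1 below, with a median log2 fold of 0.29. The background over all genes above the filter was 31.6% above and 31.1% below. Near the members were AHCTF1, which starts pore assembly on chromatin, at 0.46 with 1802 against 1225 counts, RAE1, an mRNA export factor, at 0.46, and NDC1, a membrane anchor, at 0.41. GLE1, which acts in mRNA release, was at 0.38 and TPR, of the basket, at 0.33. Outside that range, the Y complex subunit SEC13, shared with vesicle coats, was at 0.08 (-0.01 to 0.17), POM121 and POM121C were at 0.03 and -0.01, and AAAS, aladin, was at -0.18 (-0.27 to -0.09). POM121 and POM121C are near-identical, so their split is uncertain. Among 7 other receptors and Ran factors the median was 0.08, and 4 (57.1%) had an interval above 1, against the same background. The furthest with at least 100 counts in a library were RANGRF at 0.34 (0.12 to 0.57) and RANBP6 at 0.20. RANBP3, a cofactor of XPO1, at 0.19, and NUTF2, which brings Ran into the nucleus, at 0.08, came next. RANBP17, with 62 against 63 counts, was at -0.11 (-0.65 to 0.41). XPOT, the exporter of tRNA, had 3725 against 3485 counts and 0.00 (-0.07 to 0.06).

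Of 17 mRNA export genes, 13 (76.5%) had an interval above 1 and 1 below, against backgrounds of 31.6% and 31.1%. The median log2 fold was 0.31. DDX39A, an RNA helicase of export, had 2160 counts with CBS and 1155 without, a log2 fold of 0.80 (0.70 to 0.91), whereas its paralog DDX39B had 8538 against 7775 and 0.04 (-0.01 to 0.08). DDX19A was at 0.51, ENY2 at 0.43 and THOC7 at 0.38, and THOC6 was at -0.31. The lamina and envelope list, of 12 genes, had 7 intervals above 1 (58.3%) and 1 below, against the same backgrounds, and a median of 0.17. LMNB1, lamin B1, had 3211 against 1647 counts and 0.86 (0.78 to 0.95), and LBR, its receptor, had 1484 against 942 and 0.56 (0.44 to 0.68). TMPO, which codes for the lamin-binding LAP2 proteins, had 4698 against 3435 and 0.35 (0.29 to 0.42). LMNB2, lamin B2, had 6543 against 4804 and 0.35, and LMNA had 11380 against 9694 and 0.13 (0.09 to 0.17). SUN2, which ties the lamina to the cytoskeleton, had 1830 against 2860 and -0.74 (-0.83 to -0.66).

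Genes of cell proliferation were also higher in the CBS library. Of 21, 18 (85.7%) had an interval above 1 and 0 below, against backgrounds of 31.6% and 31.1% of all genes above the filter. The median log2 fold was 0.40, and 8 (38.1%) were at least 1.5-fold higher, against a background of 7.02%. The 4 furthest were subunits of the replicative helicase: MCM2 with 3690 against 1766 counts and 0.96 (0.88 to 1.05), MCM6 with 0.96, MCM3 with 0.86 and MCM4 with 0.78. Genes of mitosis in the list were nearer to 0, with CCNB1 at 0.23 and MKI67 at 0.04. The part of these differences in those of the pore and transport genes was not tested.

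**Figure D3:**
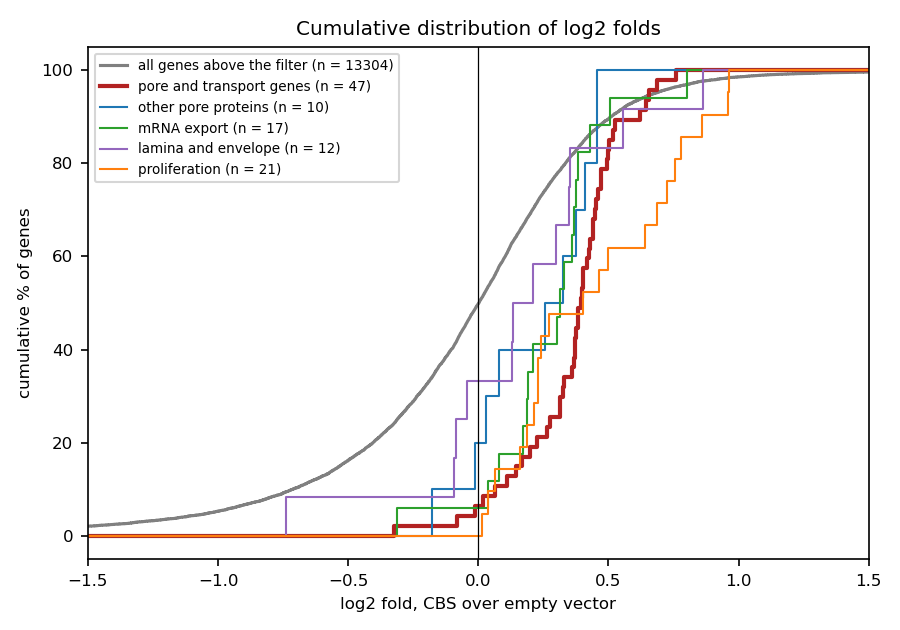
Cumulative percentage of genes (y axis) by log2 fold (x axis, CBS over empty vector; values beyond 1.5 in either direction lie outside the frame) for all 13304 genes above the filter, the 47 pore and transport genes and 4 other lists. The pore and transport curve lies to the right of the curve of all genes through most of its range and is steep around its median of 0.39, and the proliferation curve reaches further right.

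Transcript GC content moved with the log2 fold over all genes, so the members were also set beside genes of like composition. In the quintile of lowest GC content the median log2 fold was 0.12 for all genes and 0.38 for the 15 members there. In that of highest GC content it was -0.23 and 0.34, the latter over 4 members. In the 3 quintiles between them, the members' medians were 0.39, 0.43 and 0.36, against 0.10, 0.03 and -0.06. The members' longest transcripts had a median GC content of 44.4% and a median length of 5325 bases, against 48.1% and 3521 bases for all genes above the filter. After a lowess correction for GC content and length, the members' median was 0.31. Of the 47, 44 remained positive, against 6622 of the 13225 genes corrected. An interval above 1 was found for 41 members, against a background of 31.1%. The same 3 genes as before were at or below 0: NUP210 at -0.16, KPNA5 at -0.09 and KPNA1 at -0.20.

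**Figure D4:**
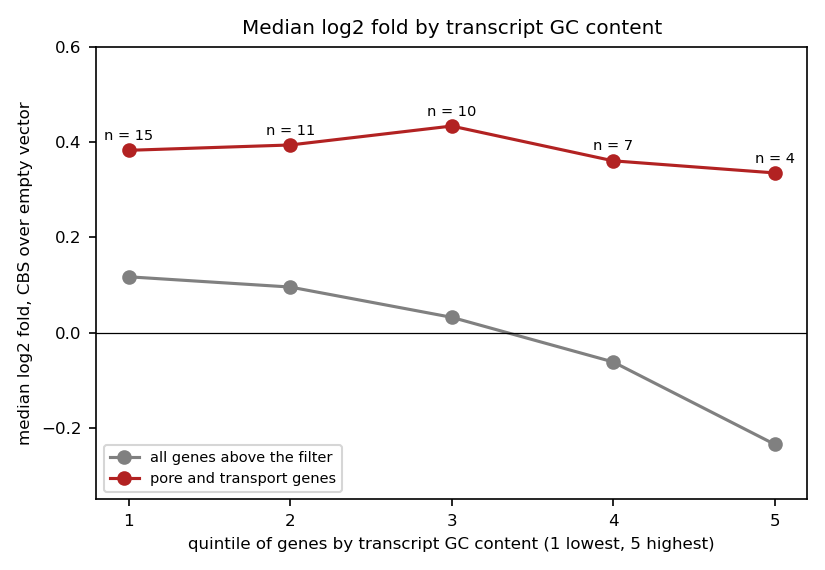
Median log2 fold (y axis, CBS over empty vector) in quintiles of genes by the GC content of the longest transcript (x axis), for all genes above the filter and for the pore and transport genes, with the number of the latter above each point. The median of all genes falls from 0.12 to -0.23, and that of the pore and transport genes stays between 0.34 and 0.43.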

How the data were processed

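RNA-seq libraries, 2 in all and 1 per group, were compared. Trimmomatic 0.39, STAR 2.6.1d, RSEM 1.3.2 and GRCh38 are named in the submitters' processing notes, with no roles or order; the annotation and strand setting are not given in the sources used here. Expected counts per gene, as deposited by the authors, were not whole for 15.5% and 15.7% of genes and were rounded. The authors also deposited TPM, used for levels and as log2(TPM + 1).

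Genes with at least 10 counts in 1 library and a mean CPM of 1 or more passed (13304). TMM factors (edgeR 4.0.16, R 4.3.3, no model fitted) were 1.03 and 0.975. Intervals are Clopper-Pearson, conditional on the summed count, and reads are not independent molecules, so they may be narrow. On simulated Poisson counts for CBS against empty vector over 13304 genes, they held the true ratio for 95.3% of unchanged genes. Such intervals reach this share on Poisson counts by construction. The simulation held no spread between cultures, so it checks the code only. Members, lists and tests were chosen with earlier results of these data known. Every member was named, with intervals by a size rule (the 3 furthest of a role) and for other members where a comparison uses them. A pathway list gave its 4 furthest with at least 100 counts in a library. Further genes of it were named after their values were seen. GC content and length came from GENCODE 29 (99.4% of kept genes matched; lowess span 0.3, statsmodels 0.14.6). DESeq2 1.42.0 size factors served as an alternative.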

Additional observations from a re-analysis of the deposited data

How the results depend on the processing

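The median log2 fold of the members was 0.39. It ranged from 0.31 after the lowess correction for GC content and length to 0.49 in the authors' TPM. The median of all genes above the filter also moved, from 0.00 to 0.09 in TPM and to 0.07 with plain library totals. With plain library totals the members' median was 0.47. Most of the rise of the members under these 2 settings was thus shared by all genes. After the lowess correction the median of all genes was 0.00. Positive members numbered 44 or 45 under each alternative but the one on genes with a mean of at least 1000 counts. The number of members with an interval above 1 was 42 with DESeq2 size factors, prior counts of 1 and 20, no filter, a filter of 100 counts and protein-coding genes only. It was 44 with plain library totals, where RANGAP1 and KPNA6 joined the others. Over all 13304 genes above the filter, 5061 had an interval above 1 with plain library totals, against 4199 with TMM scaling. TPM gave no interval. In TPM, 10 members (21.3%) were at least 1.5-fold higher, against 9.20% of all genes, the Ran cycle median was 0.51 and CBS was at 3.06. With plain library totals the Ran cycle median was 0.44. With no filter, KPNA7 entered with 1 count against 9. So 1 member was at least 2-fold lower, 1 at least 1.5-fold lower and 1 had an interval below 1. The backgrounds given for these calls cover genes above the filter only, so they do not apply to this setting. After the lowess correction for GC and length, 1 member, KPNA1, had an interval below 1 and the importin beta family median was 0.29. The alternative on genes with a mean of at least 1000 counts was chosen after seeing the data. There, 34 of 35 members were positive, against 2103 of all 4026 genes in that range. At least 1.5-fold higher were 3 members, against 4.52% of all genes in that range. Below that mean were 12 members. The spread between cultures is unknown and no paired analysis was possible because each group held 1 library.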

Other observations

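Genes with like names outside the rule had log2 folds in both directions. RANBP9 had 1063 counts with CBS and 1048 without it, a log2 fold of -0.08 (-0.20 to 0.05), and RANBP10 had 578 against 467 and 0.21 (0.03 to 0.39). NUP62CL, related to the end of NUP62, had 32 against 45 counts and -0.52 (-1.29 to 0.10). NUP50-AS1, the antisense neighbour of NUP50, had 25 against 37 counts and -0.57 (-1.46 to 0.11). Of the copies of RANBP2, RGPD6 had 461 against 334 counts and 0.36 (0.16 to 0.57), whereas RGPD5 had 37 against 77 and -1.05 (-1.76 to -0.57) and RGPD2 had 51 against 89 and -0.84 (-1.43 to -0.39). In TPM, RGPD5 went the other way, at 9.70 with CBS and 7.14 with the empty vector. Reads of these copies cannot be assigned with certainty.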
